A study of Homo sapiens with 7 samples.

Results

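The IL11 and gp130 cytokine axis was followed in HK-2 cells after siRNA directed at GLUT2. It is represented here by 10 genes of 33694 in the deposited table: the cytokines IL11, IL6 and LIF, the receptors IL11RA, IL6R, IL6ST, LIFR and OSMR, the transcription factor STAT3 and its feedback inhibitor SOCS3. The 10 genes were chosen by symbol, and on earlier results of the siGLUT2 against scrambled comparison in these libraries, in which IL11 was among the genes that rose. Their values in that comparison are therefore a description, and the adjusted p-values printed for them are no independent support.

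HK-2 cells are proximal tubule epithelial cells of human kidney, grown as an immortalised line, and GLUT2 is the facilitative glucose transporter encoded by SLC2A2. The 4 scrambled libraries (replicates 1 to 4, genotype WT in the labels) came from cells given an siRNA of scrambled sequence. The 3 siGLUT2 libraries (replicates 2 to 4, genotype GLUT2-KD) came from cells given siGLUT2. Both groups received 50 nM siRNA with RNAimax in 6-well plates and were lysed after 96 h. All libraries come from 1 cell line, and the siRNA sequences were not given in the sources used here. The labels call the libraries biological replicates without naming separate cultures, so a p-value reflects only how these 7 libraries vary, which may be technical.

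Cytokines of the IL6 family act through gp130, the shared signal-transducing receptor encoded by IL6ST. IL11 and IL6 first bind their own receptors, IL11RA and IL6R, and then recruit gp130, while LIF signals through LIFR with gp130 and oncostatin M through OSMR or LIFR with gp130. Receptor-bound JAK kinases then phosphorylate STAT3, which induces SOCS3, an inhibitor that binds gp130 and damps the signal. In kidney epithelium IL11 is known as a secreted cytokine of injured tubules.

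Library totals ranged from 5654957 to 8455963 counts, with 14844 to 15036 genes detected in scrambled and 13433 to 13891 in siGLUT2 libraries. Mitochondrially encoded genes took 4.91 to 5.53% of counts in scrambled and 7.04 to 7.56% in siGLUT2 libraries, and the part of these differences in the results below was not tested. SLC2A2 was counted 13, 13, 7 and 17 times in scrambled replicates 1 to 4 and 0 times in each siGLUT2 library (edgeR adjusted p = 0.0085). SLC2A2 passed the low-count filter (1.45 CPM) only through scrambled replicates 1, 2 and 4, as replicate 3 was at 0.885 CPM. Without scrambled replicate 4 the low-count filter removed SLC2A2, and the edgeR fit without that filter gave an adjusted p of 0.0538. Too few libraries reached the filter level without scrambled replicate 1 (edgeR adjusted p = 0.0255) or 2 (0.0228) as well. Of 17 tubule and kidney epithelium markers only 8 had enough counts to be tested, and 4 (LRP2, SLC22A6 and SLC22A8 among them) were at 0 in every library. CUBN had at most 1 count in a library and PAX2 at most 3. PAX8, a kidney transcription factor, was at 192 ± 6.23 CPM (SD, n = 4) in scrambled libraries. CPM is counts per 1000000 counts of a library, scaled between libraries by TMM.

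The promoters of the cytokines are shown because IL11 and IL6 were the 2 genes of the axis that passed the test. Each window runs from 250 bases before to 50 bases after the RefSeq start on GRCh38.p14, is written 5′ to 3′ on the gene's strand, and has matches to the motifs below in capitals. The IL11 window is chr19:55370414-55370713 on the minus strand, and the IL6 window is chr7:22726950-22727249 on the plus strand.
IL11: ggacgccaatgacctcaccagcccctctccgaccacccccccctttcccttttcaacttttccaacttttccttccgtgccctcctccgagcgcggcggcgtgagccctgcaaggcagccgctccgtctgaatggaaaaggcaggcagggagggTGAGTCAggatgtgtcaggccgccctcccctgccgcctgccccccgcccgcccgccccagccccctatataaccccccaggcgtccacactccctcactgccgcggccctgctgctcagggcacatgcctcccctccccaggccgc
IL6: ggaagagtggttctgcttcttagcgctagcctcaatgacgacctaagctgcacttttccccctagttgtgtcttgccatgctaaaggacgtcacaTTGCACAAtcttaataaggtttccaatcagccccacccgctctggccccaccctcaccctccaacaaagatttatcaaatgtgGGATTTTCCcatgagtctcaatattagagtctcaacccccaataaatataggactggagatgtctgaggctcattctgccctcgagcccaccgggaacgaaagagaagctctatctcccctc

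Both strands of these windows were searched for 4 motifs: TGANTCA for AP-1 (the Fos and Jun family), GGANTTTCC for NF-kB, TTGCNNAA for C/EBP and TTCNNNGAA for STAT factors. Of 35116 promoter windows in the RefSeq table, 7.71% held the AP-1 letters, 1.64% the NF-kB letters, 10.46% the C/EBP letters and 7.66% the STAT letters. The IL11 window held 1 match, to AP-1, that begins 96 bases before the start. The IL6 window held an NF-kB match from base -72 and a C/EBP match from base -155. Matches did not overlap each other. The AP-1 letters also stood near the starts of 2 receptor genes, OSMR (chr5:38846003-38846033, plus strand, match from base 4) and IL6R (chr1:154405368-154405392, plus strand, match from base 38), whose surroundings are set beside that of IL11 (chr19:55370541-55370571).
IL11 AP-1 match: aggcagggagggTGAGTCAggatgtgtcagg
OSMR AP-1 match: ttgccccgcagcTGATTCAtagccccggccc
IL6R AP-1 match: cgtccgccgctcTGAGTCAtgtgcg
IL11 and IL6R held the same 7 letters. LIFR had windows at 3 starts, with STAT matches in 2 of them and a C/EBP match in 1, and OSMR also held a C/EBP match from base -73. None of the 4 motifs was found in the windows searched for IL11RA, IL6ST, STAT3 or SOCS3. The SOCS3 windows (chr17:78359618-78359917 and chr17:78360876-78361175, minus strand) do not cover the outermost annotated start of that gene at 78360077. The bases around that SOCS3 start were therefore not searched. The windows of IL11RA, IL6 and LIFR do not reach the outermost annotated starts of their genes either. Entries were found for 9 of the 10 genes (13 windows), and LIF had none. A match is only a description of these letters.

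Of the 10 genes, IL11 and IL6 rose and 0 fell after siGLUT2. Over all 12404 genes tested, 28.3% passed an adjusted p of 0.05, 13.9% as higher and 14.4% as lower. All 10 genes passed the filter on low counts, IL6 only through the siGLUT2 libraries (3 of 3 reached the filter level, against 1 of 4 scrambled libraries). Groups did not overlap for 3 of the 10 (IL11, IL6 and IL6ST, all higher), against 35.1% of all tested genes in either direction and 17.2% as higher. The median log2 fold change (siGLUT2 over scrambled) was 0.47 for the 10 genes and -0.003 for all tested genes. By edgeR an unadjusted p below 0.05 was given to 5 of the 10 genes, IL11, IL6, IL6R, IL6ST and LIF. The share of all tested genes below that unadjusted p was not computed. That share is at least the 28.3% that passed after adjustment, which is a stricter cut. Whether 5 of 10 lies above the share of all tested genes can therefore not be said. Fold changes are given ± SE, and means ± SD over 4 scrambled and 3 siGLUT2 libraries.

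**Figure D1:**
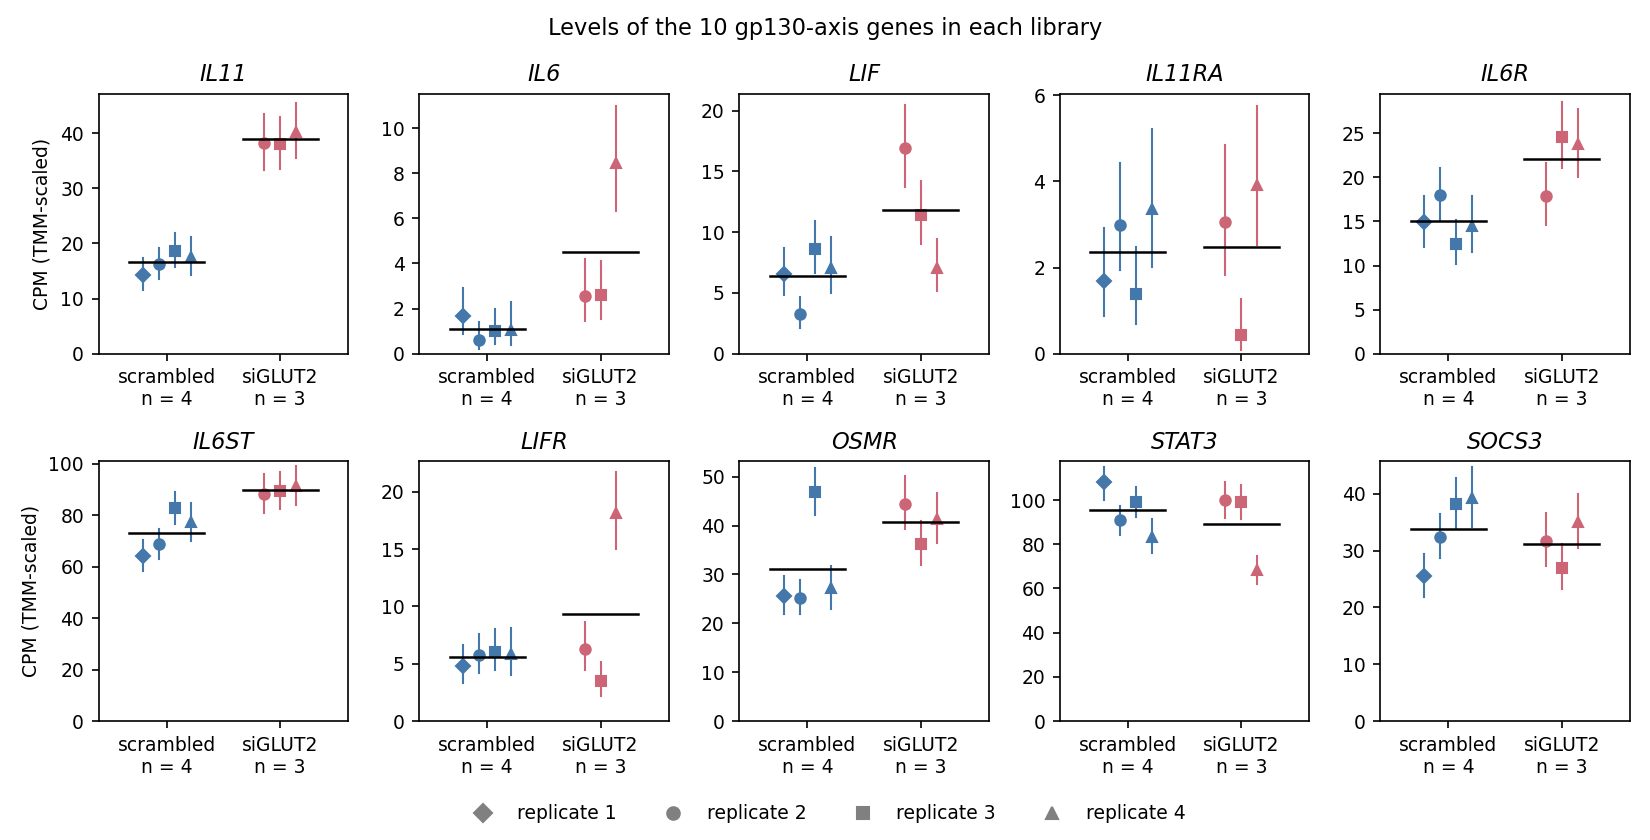
TMM-scaled CPM (y axis, from 0) of each of the 10 genes in the 4 scrambled and 3 siGLUT2 libraries. Points are libraries (shape gives the replicate number), vertical lines the exact Poisson 95% interval of that library's count, and black bars group means. The IL11 groups stand apart at 14.3 to 18.7 and 38 to 40.3 CPM, while IL6 and LIFR have 1 high siGLUT2 library, replicate 4.

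Among the ligands, IL11 (ENSG00000095752), a protein-coding gene at 55364389 to 55370463 of chromosome 19 (GRCh38, minus strand), was counted 102, 135, 148 and 99 times in scrambled replicates 1 to 4. It was counted 224, 264 and 258 times in siGLUT2 replicates 2 to 4. Scaled levels were 14.3, 16.2, 18.7 and 17.5 CPM in the scrambled libraries and 38.2, 38 and 40.3 CPM in the siGLUT2 libraries. Every siGLUT2 library thus lay above every scrambled one, and the highest scrambled level (exact Poisson 95% interval 15.8 to 21.9) was below the lowest siGLUT2 level (33.5 to 42.9). These intervals cover counting error only, and assume independent reads. The mean rose from 16.7 ± 1.89 to 38.9 ± 1.28 CPM, a ratio of 2.33 and a log2 fold change of 1.22 ± 0.19 (edgeR adjusted p = 3.5e-05). Over 15 alternative fits, each left-out library included, the log2 fold change stayed between 1.15 and 1.29 and the adjusted p reached at most 0.00141. In RNA from whole cultures, a larger share of cells that express a gene and more of its RNA per cell cannot be told apart.

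A few marker genes of other cell types moved with the group, and most of their lists had too few counts to be tested. Of 10 fibroblast and pericyte markers 4 were tested and 2 rose, LUM (3.64 ± 0.35, from 1.86 to 23.9 CPM) and COL1A1 (0.82 ± 0.27). PDGFRB (-0.44 ± 0.90) and RGS5 (-0.05 ± 0.38) were not called. The summed level of the list was 17.2 to 23.4 CPM in scrambled and 44.5 to 51.7 CPM in siGLUT2 libraries, with COL3A1 at 0 in every library. Of 8 leukocyte markers 1 was tested, CD68, which rose (0.79 ± 0.22, from 15 to 25.9 CPM). The sum of that list was 14.2 to 18.8 and 26.8 to 29 CPM, with PTPRC, CD3E, LYZ and AIF1 at 0. Of 7 endothelial markers 6 were at 0 in every library, and the sum was at most 0.432 CPM. Of the tubule and kidney epithelium list the brush border enzymes GGT1 (0.57) and MME (0.75) rose, and the keratins KRT8 (446 to 272 CPM) and KRT18 (421 to 248 CPM) fell. The keratins had the largest CPM differences of the list, whose sum was 1400 to 1521 and 1078 to 1273 CPM. The part of these shifts in the IL11 result was not tested. LUM, COL1A1, PDGFRB, RGS5, CD68, GGT1, MME and the keratins were named after their values were seen.

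IL6 (chromosome 7, 22725884 to 22732002, plus strand), the founding cytokine of the family, was near the lower limit of these libraries. It was counted 12, 5, 8 and 6 times in scrambled replicates 1 to 4 and 15, 18 and 54 times in siGLUT2 replicates 2 to 4. Levels were 1.68, 0.6, 1.01 and 1.06 CPM against 2.56, 2.59 and 8.44 CPM. The siGLUT2 libraries all lay above the scrambled ones, but replicate 4 was far above replicates 2 and 3, and the Poisson interval of scrambled replicate 1 (0.867 to 2.93 CPM) reached the level of both. The mean went from 1.09 ± 0.446 to 4.53 ± 3.39 CPM (2.05 ± 0.73, edgeR adjusted p = 0.0378). Without siGLUT2 replicate 4 the log2 fold change was 1.23 ± 0.88 (adjusted p = 0.318), and the call was also lost without scrambled replicate 2 (0.0965), 3 (0.0736) or 4 (0.0779), and with limma-voom (0.0753).

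IL6 also shares 428 exonic bases with IL6-AS1, an antisense gene on the other strand. IL6-AS1 was counted 7, 7, 12 and 4 times in scrambled and 21, 13 and 23 times in siGLUT2 libraries (1.55 ± 0.77, adjusted p = 0.142). The strand setting of the counting is not given in the sources used here, so reads of the pair cannot be told apart and both values are uncertain.

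LIF (chromosome 22, 30240447 to 30246851, minus strand), the leukemia inhibitory factor, was at 6.59, 3.24, 8.6 and 7.06 CPM in scrambled replicates 1 to 4. In siGLUT2 replicates 2 to 4 it was at 16.9, 11.4 and 7.04 CPM. Replicates 2 and 3 lay above all scrambled libraries and replicate 4 lay among them, so the groups overlapped. A log2 fold change of 0.89 ± 0.38 did not pass (adjusted p = 0.0844). It passed without siGLUT2 replicate 4 (1.15 ± 0.37, adjusted p = 0.0215) and in no other of 15 alternative fits. The library with the highest IL6 level was thus the one with the lowest LIF level in its group.

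**Figure D2:**
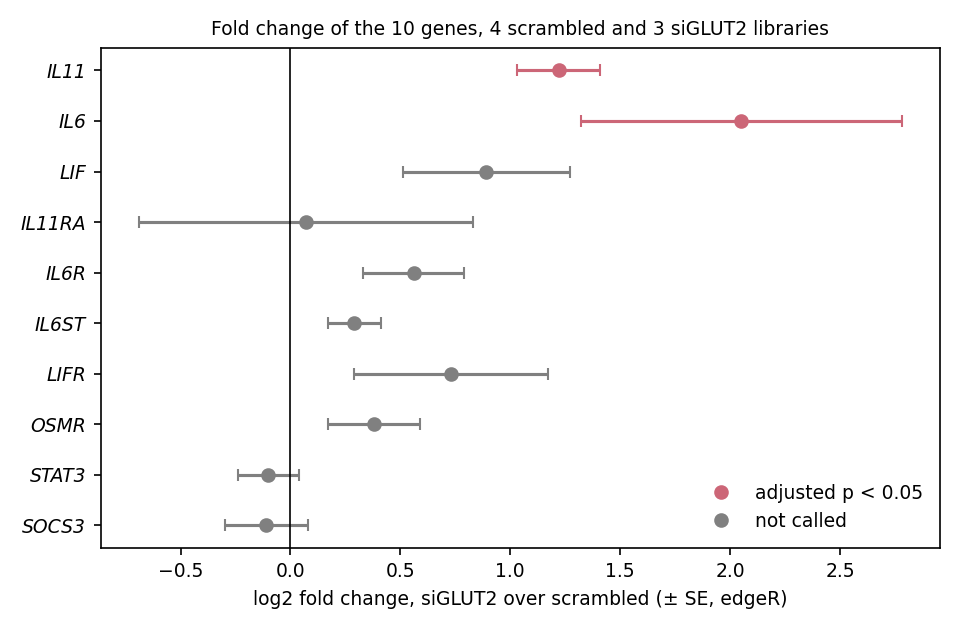
Log2 fold change of each gene, siGLUT2 over scrambled, from edgeR over all 7 libraries, with bars of 1 SE. IL11 at 1.22 and IL6 at 2.05 are coloured as passing an adjusted p of 0.05, and the other 8 genes are grey.

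The ligand-specific receptors did not pass. IL11RA (chromosome 9, 34650702 to 34661892, plus strand), which IL11 binds first, was at 1.68, 3, 1.39 and 3.35 CPM in scrambled and 3.07, 0.432 and 3.91 CPM in siGLUT2 libraries. The groups overlapped fully, with siGLUT2 replicate 3 (3 counts) lowest and siGLUT2 replicate 4 (25 counts) highest of all 7. The log2 fold change was 0.07 ± 0.76 (adjusted p = 0.962), and its sign turned in 7 of 14 alternative fits. At this depth a 2-fold difference in IL11RA would lie within 2 SE. IL11RA shares 334 exonic bases with GALT on the same strand, which was counted 61 to 123 times per library.

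IL6R (chromosome 1, 154405193 to 154469450, plus strand), the binding receptor of IL6, was at 14.9, 18, 12.5 and 14.5 CPM in scrambled and 17.9, 24.6 and 23.8 CPM in siGLUT2 libraries. Replicates 3 and 4 of siGLUT2 lay above all scrambled libraries, and replicate 2 was level with the highest of them. The log2 fold change of 0.56 ± 0.23 did not pass (adjusted p = 0.0746), and passed in 1 of 15 alternative fits, without siGLUT2 replicate 2 (0.69 ± 0.24, adjusted p = 0.033).

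IL6ST (chromosome 5, 55935095 to 55994993, minus strand) encodes gp130 itself. It was at 64.2, 68.7, 82.7 and 77.3 CPM in scrambled replicates 1 to 4 and at 88.3, 89.5 and 91.5 CPM in siGLUT2 replicates 2 to 4. The groups did not overlap, and the siGLUT2 libraries were close together (SD 1.58 CPM, against 8.33 CPM in scrambled). The means of 73.2 and 89.8 CPM differed by a log2 fold change of 0.29 ± 0.12, which did not pass (adjusted p = 0.0805, and 0.0544 to 0.263 over 15 alternative fits).

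LIFR (chromosome 5, 38474963 to 38608354, minus strand), the receptor of LIF, was at 4.77, 5.76, 6.07 and 5.82 CPM in scrambled libraries. In siGLUT2 replicates 2 to 4 it was at 6.31, 3.46 and 18.1 CPM, or 37, 24 and 116 counts. Replicate 4 stood apart from every other library (Poisson interval 15 to 21.7 CPM), while replicate 2 lay just above the scrambled range and replicate 3 below it. With all libraries the log2 fold change was 0.73 ± 0.44 (adjusted p = 0.239), -0.21 without siGLUT2 replicate 4 (adjusted p = 0.777) and 1.13 ± 0.40 without siGLUT2 replicate 3 (adjusted p = 0.048). One library therefore sets its direction.

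OSMR (chromosome 5, 38845858 to 38945596, plus strand), the oncostatin M receptor, was at 25.6, 25.2, 46.8 and 27.2 CPM in scrambled and 44.5, 36.3 and 41.4 CPM in siGLUT2 libraries. Scrambled replicate 3 was the highest of all 7 libraries, and the 3 other scrambled libraries lay below all siGLUT2 libraries. OSMR differed by a log2 fold change of 0.38 ± 0.21 (adjusted p = 0.182), and 0.65 ± 0.19 without scrambled replicate 3 (adjusted p = 0.0162). OSMR shares 229 exonic bases with RICTOR on the other strand, which was counted 112 to 172 times (0.20 ± 0.22, adjusted p = 0.551).

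**Figure D3:**
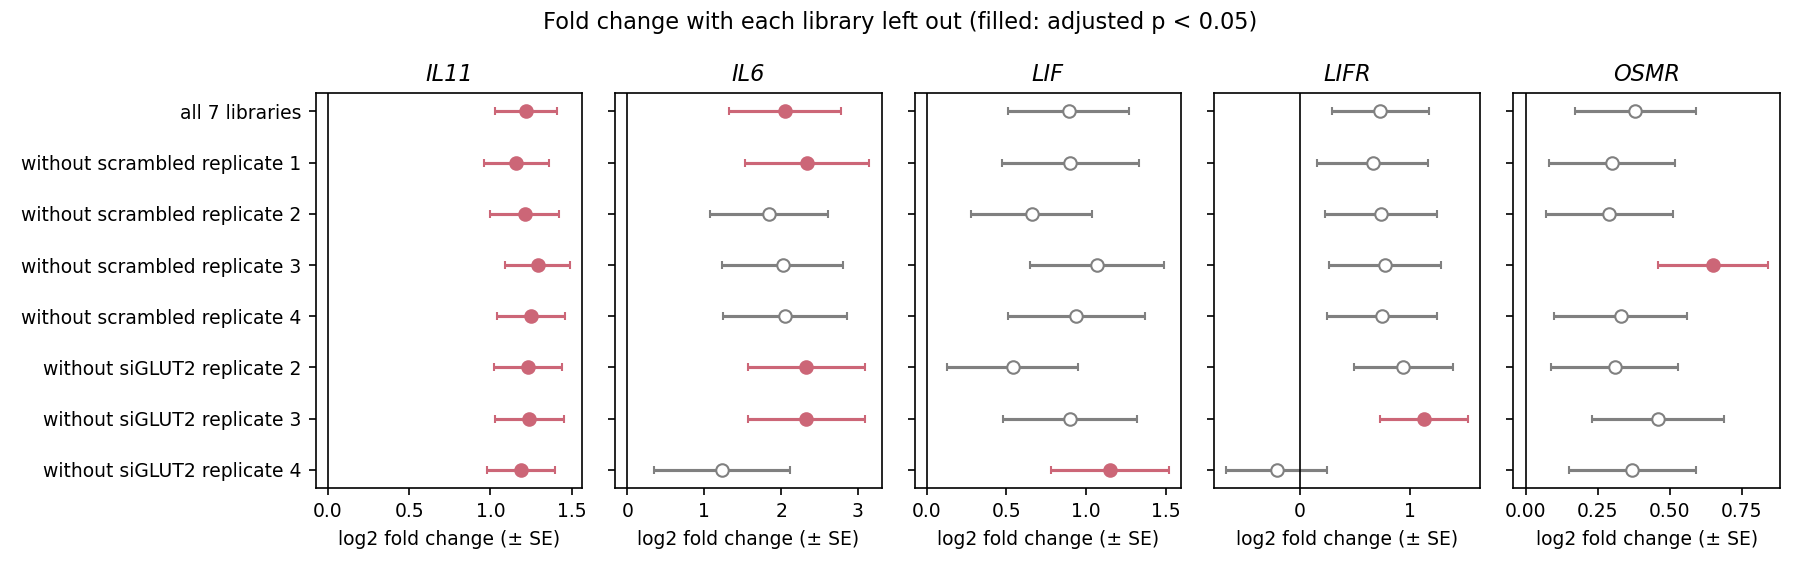
Log2 fold change (x axis, bars of 1 SE) of 5 genes from edgeR with all 7 libraries and with each library left out (y axis). Filled points pass an adjusted p of 0.05. IL11 passes in every fit, between 1.16 and 1.29 with a library left out, whereas IL6 ranges from 1.23 to 2.34 and LIFR from -0.21 to 1.13.

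The spread between libraries beyond counting differed among the genes. As chi-square per degree of freedom of counts within a group, where 1 would be counting error alone, IL11 was at 1.58 in scrambled and 0.272 in siGLUT2 libraries. The median of all tested genes was 3.95 and 7.2. LIFR stood at 0.428 and 42.8, STAT3 at 7.54 and 23.2, IL6 at 1.42 and 16.2, and OSMR at 26.7 and 2.73. IL11 and IL6ST (7.1 and 0.172) were thus the members with siGLUT2 libraries closest together.

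Downstream of the receptors, STAT3 (chromosome 17, 42313324 to 42388568, minus strand) was at 108, 90.8, 99.3 and 83.4 CPM in scrambled and 99.9, 99 and 68.3 CPM in siGLUT2 libraries. Replicates 2 and 3 of siGLUT2 lay within the scrambled range and replicate 4 lay below it. STAT3 had a log2 fold change of -0.10 ± 0.14 (adjusted p = 0.647), and -0.19 to 0.06 over 15 alternative fits. These are transcript levels. The phosphorylation through which STAT3 is activated was not measured.

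SOCS3 (chromosome 17, 78356778 to 78360077, minus strand), the STAT3-induced inhibitor of gp130, was at 25.5, 32.4, 38.2 and 39.2 CPM in scrambled and 31.7, 26.9 and 35 CPM in siGLUT2 libraries. All siGLUT2 libraries lay within the scrambled range. The log2 fold change was -0.11 ± 0.19 (adjusted p = 0.704) and stayed between -0.23 and -0.02 over 15 alternative fits. No rise of the SOCS3 transcript was thus detected in the libraries in which IL11 stood at 2.33 times its scrambled mean, and the difference between the 2 fold changes was not tested.

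The other genes of the pathway were taken from 7 lists of 77 genes, of which 62 were tested, 13 rose and 10 fell, with a median log2 fold change of 0.09. Over all tested genes 28.3% passed, 13.9% as higher and 14.4% as lower. The counts of each list below stand beside these shares and were not tested against them. Of the 23 that passed, 20 did so with each library left out in turn. Genes named below that the naming rule did not take were chosen after their values were seen.

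Among 8 other ligands of the family 3 were tested, 0 rose and 1 fell (median 0.31). EBI3, a subunit of IL27 and IL35, was at 7.93 ± 3.07 CPM in scrambled libraries and changed by 0.76 ± 0.33 (adjusted p = 0.0959), and CLCF1, a ligand of the CNTF receptor, by 0.31 ± 0.38 (adjusted p = 0.601). OSM and IL31 had 0 counts in every library, which allows up to 0.103 CPM in scrambled and 0.156 CPM in siGLUT2 libraries (3 counts over each group).

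Of 5 other receptors and sheddases 4 were tested, 1 rose and 0 fell (median 0.39). IL31RA, a gp130-like receptor chain that pairs with OSMR, rose from 2.12 ± 1.45 to 8.21 ± 2.05 CPM (1.94 ± 0.53, edgeR adjusted p = 0.00788). Like IL6, it passed the low-count filter only through the siGLUT2 libraries, so its call is no independent support. Scrambled replicates 2 and 4, at 0.839 and 1.06 CPM, were below the filter level of 1.45 CPM. The ligand of IL31RA was the undetected IL31. The sheddases that can release soluble IL6R, ADAM10 (0.29 ± 0.14, adjusted p = 0.117) and ADAM17 (-0.06 ± 0.10, adjusted p = 0.712), did not pass. CNTFR, the receptor of ciliary neurotrophic factor, had 0 counts.

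Among 9 JAK kinases and adaptors 1 rose and 0 fell (median -0.01). JAK1, the main gp130-associated kinase, was at 346 ± 15.5 CPM in scrambled libraries and changed by -0.03 ± 0.09 (adjusted p = 0.849). PTPN11, the phosphatase SHP2, changed by -0.01 ± 0.11 (adjusted p = 0.975). The Src-family kinase YES1 rose by 0.35 ± 0.13 with an adjusted p of 0.0463, a call kept in 2 of 7 fits with a library left out (adjusted p up to 0.155). The fits that lost it left out scrambled replicate 1, 2 or 3, or replicate 3 or 4 of siGLUT2.

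Of 6 other STAT factors 1 rose and 1 fell (median -0.21). STAT6, the mediator of IL4 signals, rose by 0.39 ± 0.11 (adjusted p = 0.0124, and 0.0536 without scrambled replicate 1). Of 15 other negative regulators 1 rose and 1 fell (median 0.10). The phosphatase PTPN1, which acts on JAK2 and TYK2, fell from 464 ± 34.7 to 348 ± 19.5 CPM (-0.41 ± 0.09, adjusted p = 0.000778). PDLIM2, a ubiquitin ligase for STAT factors, rose by 0.59 ± 0.16 (adjusted p = 0.00939, and 0.0723 without siGLUT2 replicate 2). SOCS1 (0.37 ± 0.92) and SOCS2 (0.63 ± 0.69) were counted too rarely for a narrow estimate.

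**Figure D4:**
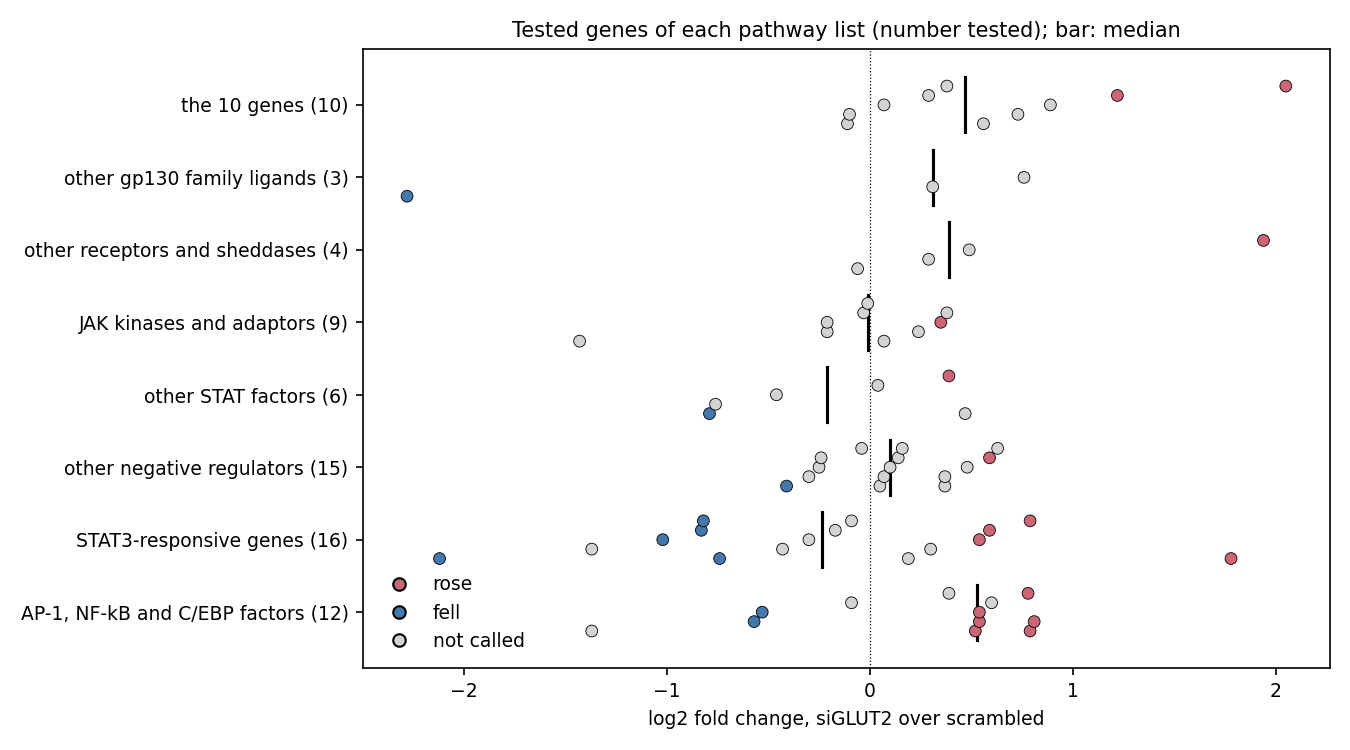
Log2 fold change (x axis, siGLUT2 over scrambled) of every tested gene of the 10-gene axis and the 7 lists of other pathway genes (y axis, number tested in brackets). Each point is a gene, coloured by whether it rose, fell or was not called, and black bars are list medians. The STAT3-responsive genes lie on both sides of 0 (4 rose, 5 fell), and the AP-1, NF-kB and C/EBP factors have the highest median of the 7 lists, 0.53.

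Genes known to respond to STAT3 went in both directions. Of 25 listed 16 were tested, 4 rose and 5 fell (median -0.24), against 13.9% higher and 14.4% lower among all tested genes. Cyclin D1 (CCND1) rose from 31.4 ± 9.69 to 108 ± 6.88 CPM (1.78 ± 0.18, adjusted p = 1.25e-07), the adhesion molecule ICAM1 by 0.79 ± 0.13 (adjusted p = 6.25e-05), VEGFA by 0.59 ± 0.17 and CEBPB by 0.54 ± 0.14. The fibrinogen chain FGB fell from 516 ± 39.7 to 291 ± 53.2 CPM (-0.83 ± 0.10, adjusted p = 2.95e-06). The survivin gene BIRC5 fell from 245 ± 10.3 to 147 ± 25.2 CPM (-0.74 ± 0.11), and the kinase gene PIM1 (-1.02 ± 0.20), TIMP1 (-0.82 ± 0.16) and MUC1 (-2.12 ± 0.48) fell too. These 9 genes kept their calls with each library left out. Unlike FGB, other acute-phase genes of the liver, SERPINA3, FGA, HP, CRP, HAMP and A2M, had 0 counts in every library. SAA1 had at most 10 counts in a library and was not tested. Many of these genes also respond to other factors, so the list does not isolate STAT3.

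AP-1, NF-kB and C/EBP factors are known to bind cytokine promoters. Of 12 such factors 6 rose and 2 fell (median 0.53), against 13.9% higher and 14.4% lower among all tested genes. FOSL2 rose from 101 ± 7.11 to 173 ± 8.58 CPM (0.78 ± 0.10, adjusted p = 5.5e-06), JUN from 152 ± 16.1 to 218 ± 19.4 CPM (0.52 ± 0.10, adjusted p = 0.000469) and RELB from 42.8 ± 3.34 to 75.2 ± 16.4 CPM (0.81 ± 0.15, adjusted p = 0.000345). FOSL1 (0.79 ± 0.19), NFKB2 (0.54 ± 0.13) and CEBPB rose too. JUND fell from 252 ± 24.9 to 175 ± 26.7 CPM (-0.53 ± 0.11, adjusted p = 0.000788), and RELA fell by 0.57 ± 0.14 on the log2 scale. Whether any of them bears on IL11 or IL6 was not tested.

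The genes whose pattern over the 7 libraries was most like that of IL11 were sought among the 10355 tested genes that averaged 5 CPM or more. By Pearson correlation of log2 CPM they included CHST11 (r = 0.999), BTF3 (0.996) and DUSP10 (0.996). CHST11, a chondroitin sulfotransferase, rose from 19.1 ± 2.85 to 56.7 ± 2.84 CPM, and DUSP10, a phosphatase of stress-activated MAP kinases, from 4.2 ± 0.76 to 28.4 ± 4.35 CPM. The points share libraries and the difference between the groups, so any gene that separates the groups scores high. Within the axis the correlation with IL11 was 0.90 for IL6ST, 0.80 for IL6, 0.77 for IL6R, 0.69 for OSMR, 0.65 for LIF, 0.35 for LIFR, -0.07 for SOCS3, -0.10 for IL11RA and -0.34 for STAT3.

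The 3′ untranslated regions were searched for GACCTTA and ACCTTAA, words that an earlier scan of these fold changes had picked. Of the 10 genes 3 held one of them, IL6R, IL6ST and OSMR, and IL11 and IL6 held none. Either word stood in 16.42% of 11654 tested genes with an annotated region. The median log2 fold change was -0.09 for genes with either word, against 0.02 for genes with neither. As the words were picked on these fold changes, that difference is no independent support. The length of the regions was not taken into account.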

How the data were processed

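Total RNA of 7 HK-2 samples was sequenced single-end by a Digital mRNA-seq service, per the labels' protocols. The authors deposited raw counts per Ensembl gene. The submitters' processing notes list STAR, HTSeq, edgeR and hg38. Strand setting, gene annotation and molecular identifiers were not given in the sources used here. Whether reads come from transcript ends is not said either, so levels are best compared within a gene. The sums of marker lists and the ranking of CPM differences mix genes, and weigh most those with high CPM.

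Of 33694 rows 16136 were at 0 in every library. Symbols were matched by Ensembl ID (32807 matched), positions are those of GENCODE release 29 on GRCh38, and promoters come from RefSeq (GRCh38.p14). Genes were filtered with filterByExpr (at least 10 counts, 15 in total), scaled by TMM and tested by the quasi-likelihood test of edgeR 4.0.16 (R 4.3.3, robust dispersions, group as the only term). P-values were adjusted by Benjamini-Hochberg over all tested genes, with 0.05 as threshold. Log2 CPM used a prior count of 2. Poisson intervals are exact at 95%, and a count of 0 allows 3 counts. Alternatives were DESeq2 1.42.0, limma-voom (limma 3.58.1), RLE and upper-quartile scaling, no low-count filter, a minimum count of 30, a replicate block and each library left out. A limma-voom fit with group quality weights was chosen after seeing the data. Fits were tested on simulated data.

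The 10 genes and all lists were chosen with earlier results of these data known. The naming rule takes the 10 genes, SLC2A2, up to 4 genes per list with the smallest adjusted p below 0.05 (or, where fewer than 2 pass, the 2 with the highest CPM) and the 5 genes most like IL11. Some genes of this rule and of the lists are counted but not reported here by name. Lists cover other ligands, receptors and sheddases, JAK kinases and adaptors, STAT factors, negative regulators, STAT3-responsive genes, AP-1, NF-kB and C/EBP factors, and markers of tubule, fibroblasts, endothelium and leukocytes. Marker lists were summed as CPM.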

Additional observations from a re-analysis of the deposited data

Results flagged for a closer look

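OSMR in scrambled replicate 3 stood far from the rest of its group, at 46.8 CPM against 25.2 to 27.2 CPM in the other 3 scrambled libraries, a gap of 0.909 of the group's range, above Dixon's 95% critical value for 4 libraries. Of 29 genes checked in the scrambled libraries 1, OSMR, passed that value, which chance alone passes in about 5% of groups. The siGLUT2 group of 3 libraries was not checked in this way.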

How the results depend on the processing

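The count of members called was 2 (IL11 and IL6). It was 1, IL11 alone, with limma-voom, with the stricter low-count filter (which removed IL6 and IL11RA), with the replicate block and with limma-voom under group quality weights, and it ranged from 1 to 3 with a library left out. IL11 was called in each of these fits. Same-numbered libraries were not seen to deviate together (correlations 0.00953, 0.0152 and -0.00323, against -0.0276 to 0.0148 for unlike numbers). With so few libraries per group this cannot show whether the samples were paired by number. With the replicate block 2649 genes were called in place of 3509, 21 in place of 23 other pathway genes, with STAT6 at 0.33 (adjusted p = 0.0702) and PDLIM2 at 0.52 (adjusted p = 0.054) no longer called, IL6 had 2.13 ± 0.94 (adjusted p = 0.124), and the SLC2A2 value was -6.61 (adjusted p = 0.0577). Left-out libraries gave SLC2A2 values of -6.84 to -6.36, which depend on the prior count and are no bound. Where the low-count filter removed SLC2A2 from such a fit, its value came from the same fit without the filter. Left-out libraries also gave 2796 to 3778 genes called and 22 to 25 pathway genes called. The stricter filter left no SLC2A2 value. Without one library LIF, LIFR, OSMR or IL6R passed singly, as given above, EBI3 passed with limma-voom (0.87, adjusted p = 0.0449) and ADAM10 without siGLUT2 replicate 4 (0.37, adjusted p = 0.0475). No scaling moved the median log2 fold change by more than 0.1. IL6, IL11RA and SLC2A2 had few counts.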
